A study of Mus musculus with 5 samples.

Results

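The T-box genes encode transcription factors that bind DNA through a shared domain, the T-box, and 10 of them were followed here through a map of the repressive histone mark H3K27me3. The genes were Tbx1, Tbx2, Tbx3, Tbx4, Tbx5, Tbx15, Tbx18, Tbx20, Tbx21 and Tbx22, taken by name from 21938 protein-coding genes. Their peaks were all those of the deposited lists that touched a gene body or its flanks of 5 kb on each side. This gave 59 of 22757 peaks in replicate 1 against input, 80 of 24881 in replicate 1 against IgG, and 37 of 33379 in replicate 2 against input.

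Chromatin immunoprecipitation followed by sequencing was done on the mesenchyme of molars from C57BL/6 mice of wildtype genotype at post natal day 3, after the dental epithelium had been taken off. Of 5 libraries, 2 were immunoprecipitated for H3K27me3, 2 were input chromatin and 1 was pulled down with IgG, an antibody with no specific target. No mutant, treatment or other age was profiled, so the comparisons are between genes. Whether the libraries with H3K27me3 stem from different animals is not given, and an SD below is the spread between these 2 libraries, which may be technical. The IgG list uses the H3K27me3 library of replicate 1 again and is no further replicate.

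H3K27me3 is trimethylation of lysine 27 of histone H3. It is placed by Polycomb repressive complex 2, whose catalytic subunit is Ezh2 or its relative Ezh1, and is known for holding developmental regulators silent in cell types that do not use them. T-box factors set positional and cell identities in many tissues. Tbx4 acts in the hindlimb and Tbx5 in the forelimb and heart, Tbx2 and Tbx3 are closely related repressors, Tbx18 marks the epicardium, Tbx20 acts in the heart and Tbx21, or T-bet, directs type 1 helper T cells. Tbx15 acts in the skull, limb skeleton and skin, Tbx1 in the pharyngeal arches and tooth, and Tbx22 in the palate. Tbx2 with Tbx4 and Tbx3 with Tbx5 are linked pairs that go back to the duplication of 1 ancestral pair. A peak shows where the mark was called and is not a measure of expression. In whole tissue, a mark on few cells and a weak mark on all cells cannot be told apart.

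The bases that peaks of both replicates shared are the most directly repeated data at these genes. They are shown for Tbx4, Tbx15 and Tbx20, read from the GRCm38 reference, 5′ to 3′ on the strand of the gene, with each CpG in capitals. Each interval carried a peak in replicate 1 and in replicate 2 against input.
Tbx4, chr11:85885964-85886009, plus strand, upstream of the gene: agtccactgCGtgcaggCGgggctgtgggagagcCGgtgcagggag
Tbx4, chr11:85888737-85888825, plus strand, intron: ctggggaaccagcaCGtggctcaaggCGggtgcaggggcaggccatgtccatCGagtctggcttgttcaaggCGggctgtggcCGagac
Tbx4, chr11:85893996-85894039, plus strand, intron: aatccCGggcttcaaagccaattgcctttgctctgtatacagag
Tbx15, chr3:99253593-99253675, plus strand, intron: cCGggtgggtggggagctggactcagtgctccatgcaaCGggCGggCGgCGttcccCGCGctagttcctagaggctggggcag
Tbx15, chr3:99254894-99255000, plus strand, intron: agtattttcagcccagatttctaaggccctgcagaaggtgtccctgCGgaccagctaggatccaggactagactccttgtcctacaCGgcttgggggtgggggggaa
Tbx15, chr3:99262207-99262321, plus strand, intron: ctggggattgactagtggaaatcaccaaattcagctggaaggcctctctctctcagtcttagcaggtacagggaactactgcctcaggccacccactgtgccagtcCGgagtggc
Tbx15, chr3:99266192-99266253, plus strand, intron: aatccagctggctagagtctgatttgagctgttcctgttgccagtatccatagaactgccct
Tbx20, chr9:24775856-24775903, minus strand, upstream of the gene: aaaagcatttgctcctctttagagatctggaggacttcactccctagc
The first 2 Tbx4 intervals were rich in G and C (71.7% and 66.3%) with 3 and 5 CpG sites, and the first Tbx15 interval (71.1%) held 7. The last Tbx15 interval (48.4%) and the Tbx20 interval (45.8%) held 0 CpG sites, so the repeated positions were not of 1 base composition. A ninth shared interval, in Tbx15's upstream flank within the neighbouring gene Wars2, was 9 bases long. The tenth, of 178 bases with 9 CpG sites (60.7% GC), lay in Tbx5 at chr5:119836897-119837074 where it touches untranslated exon sequence, and is not printed.

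Most of the T-box genes carried peaks in each list. A peak was found at 8 of 10 genes in replicate 1 against input, where 25.0% of all protein-coding genes had one by the same rule. Against IgG it was 9 of 10 beside 25.9% of all genes, and in replicate 2 it was 9 of 10 beside 35.7%. In both replicates against input, 8 of 10 genes had a peak beside 15.7% of all genes, and the same 8 had a peak in all 3 lists, beside 12.7%. Tbx2 lacked a peak in replicate 1 against input and Tbx22 lacked one in every list. Longer loci have more room for a peak, and among the 12423 genes whose loci were within the length range of the T-box loci, 19.4 kb to 124 kb, the share in both replicates was 13.2%. These are counts beside a background with no test, since members of 1 family are not replicates. For a difference between genes within the same 2 libraries, an exact permutation test by sign changes could reach no two-sided p below 0.5.

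The covered share, which is the percentage of bases of a locus with its flanks that lay in peaks, ordered the genes from Tbx4 down to Tbx22. Mean values of both replicates against input were 3.90% ± 0.431 (SD, n = 2) for Tbx4, 3.04% ± 0.496 for Tbx18, 2.63% ± 0.725 for Tbx15, 2.56% ± 1.78 for Tbx5 and 2.42% ± 1.86 for Tbx21. Below them were Tbx3 with 2.08% ± 0.485, Tbx20 with 1.76% ± 0.818, Tbx2 with 1.18% ± 1.67 and Tbx1 with 0.744% ± 0.126. Only Tbx4 and Tbx18, which differed by 0.86 percentage points, and Tbx1 and Tbx22, which differed by 0.744, were neighbours in this order that lay apart by more than the larger of their SDs. From Tbx18 to Tbx1 no pair of neighbours did. The median over the 10 genes was 2.74% in replicate 1, 3.14% against IgG and 1.71% in replicate 2, while the median of all protein-coding genes was 0 in each list. Across the 10 genes the replicates' covered shares had a Pearson's r of 0.408 and a Spearman's rho of 0.286, given as a description. These points share libraries and differ in locus length.

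**Figure D1:**
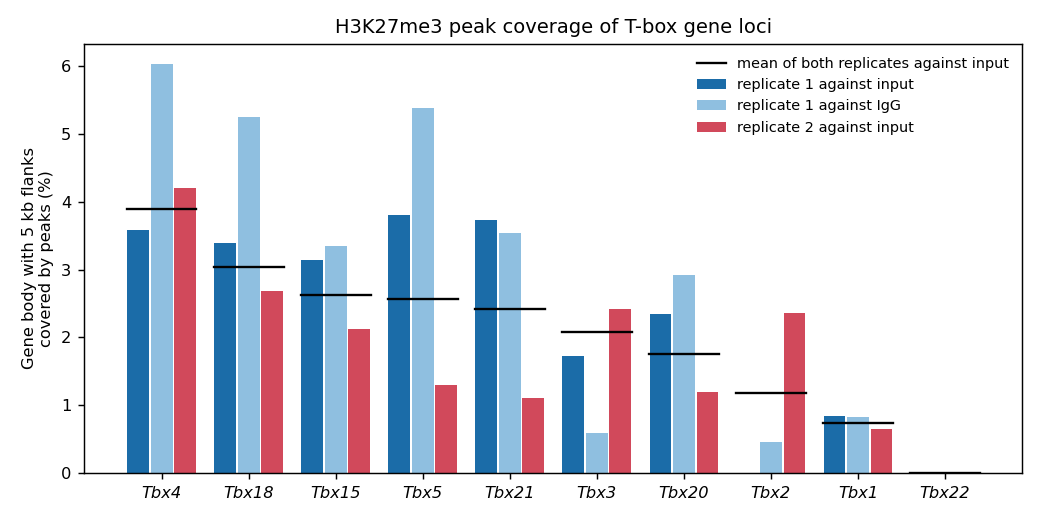
Covered share of each T-box locus (percentage of its bases, 5 kb flanks included, that lie in peaks), with 1 bar per peak list and a black line at the mean of the replicates against input. Tbx4 has the highest mean, 3.90%, and Tbx22 is at 0 in every list.

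The family contains linked neighbours on chromosome 11 and on chromosome 5, and the first comparison was between Tbx2 and Tbx4. Tbx4 was the more widely covered gene of its pair in every list. Tbx4 lies on chromosome 11 from 85886422 to 85916097 on the plus strand, and 9 peaks in replicate 1, 11 against IgG and 4 in replicate 2 covered 3.59%, 6.03% and 4.20% of its locus. Tbx2, on the same strand from 85832551 to 85841948, had 0, 1 and 2 peaks covering 0%, 0.459% and 2.36%. The 2 lists of replicate 1 share 1 H3K27me3 library, so this order was seen in 2 libraries. Tbx2 minus Tbx4 was −3.59, −5.58 and −1.84 percentage points, with a mean of −2.72 ± 1.24 (SD, n = 2) over the replicates against input. Per 10 kb of locus the order was not the same in each list, since Tbx2 had 1.03 peaks and Tbx4 1.01 in replicate 2, compared with 0 and 2.27 in replicate 1.

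At Tbx4 the peaks gathered at the start of the gene. The nearest peak lay 413 bp, 251 bp and 169 bp upstream of the 5′ end, and in replicate 1 the 7 peaks within the gene were centred 658 bp to 8070 bp into its 29.7 kb. Against IgG the 10 within the gene were centred 1158 bp to 15712 bp into it, with 1 past its midpoint. The 3 in replicate 2 were centred 2286 bp to 7237 bp into it. Replicate 1 against input had 1 further peak past the 3′ end, centred at 32878 bp. At 3 places the replicates' peaks overlapped, which are the Tbx4 intervals printed above, centred at −436 bp, 2359 bp and 7595 bp from the 5′ end, where a minus sign means upstream. At the upstream interval the fold enrichment was 2.85 in replicate 1 and 2.81 in replicate 2, and the pileup, the mean number of overlapping tags after scaling, was 4.15 and 7.21. Fold enrichment is the ratio of pileup to control background with a pseudocount of 1 on both, so values of lists of different depth are not on 1 scale. Each of the 3 places also lay in a peak against IgG.

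Tbx2 had no such cluster. In replicate 2 its peaks lay outside the gene body, 1 at −595 bp in the noncoding gene 2610027K06Rik and 1 just past the 3′ end at the lowest pileup of the list. The IgG list placed its only Tbx2 peak at 8642 bp, near the 3′ end of the gene. None of these overlapped a peak of another list. The 44.5 kb between Tbx2 and Tbx4 held 2 peaks in each list, or 0.45 per 10 kb. This space includes the inner flanks of both genes. The peak just upstream of Tbx4 was therefore counted again in each list, and in replicate 2 the peak past Tbx2 was too. Bcas3, the protein-coding neighbour before Tbx2, had 0, 1 and 4 peaks in its 473 kb body, and Brip1, a helicase gene beyond Tbx4, had 1, 1 and 2 in 143 kb. The small gene Gm11444 between the pair had 1 peak within its body and flanks in each list. In replicate 2 this was again the peak just past the 3′ end of Tbx2.

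**Figure D2:**
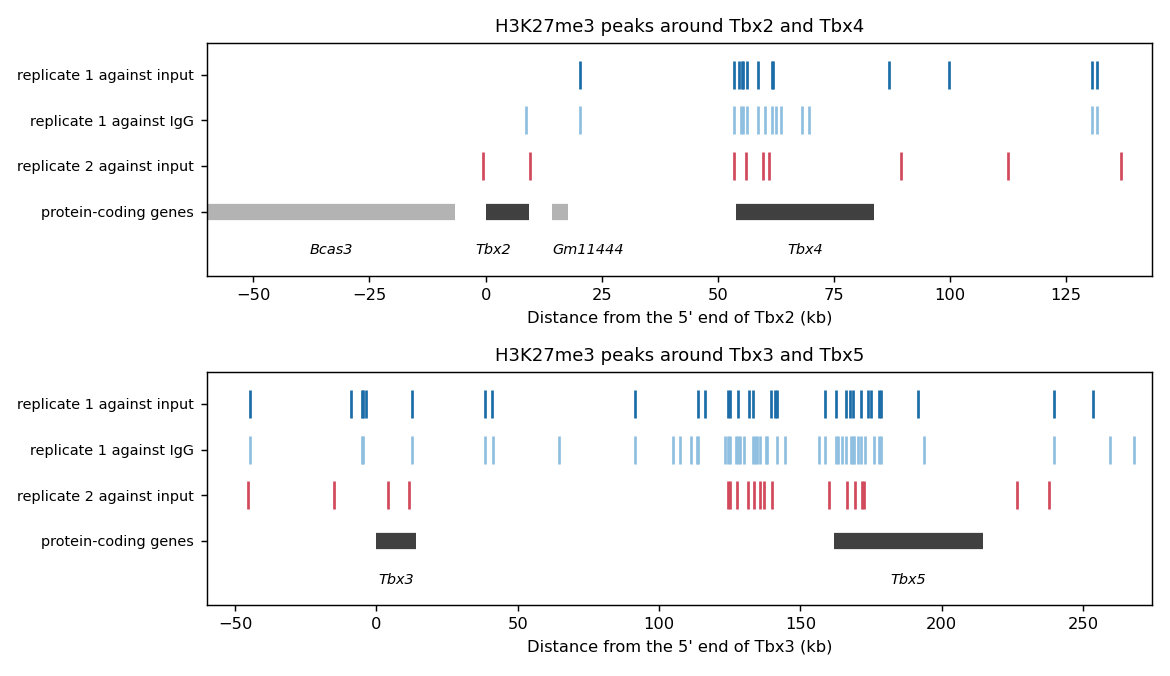
Positions of H3K27me3 peaks (ticks, 1 row per list) and protein-coding genes (bars) around Tbx2 and Tbx4 and around Tbx3 and Tbx5, in kb from the 5′ end of the first gene. Ticks gather over the start of Tbx4, over the first part of Tbx5 and before Tbx5, and are few at Tbx2 and Tbx3.

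Between Tbx3 and Tbx5 the order of the covered shares depended on the library. Tbx5, on chromosome 5 from 119832668 to 119885219 on the plus strand, had 11, 15 and 5 peaks covering 3.81%, 5.38% and 1.3% of its locus. Tbx3, from 119670669 to 119684724 on the same strand, had 3, 2 and 2 peaks covering 1.73%, 0.594% and 2.42%. Tbx5 was higher in both lists of replicate 1 and Tbx3 was higher in replicate 2. Tbx3 minus Tbx5 was −2.08 and −4.79 against either control of replicate 1 and 1.12 percentage points in replicate 2, with a mean of −0.479 ± 2.26 (SD, n = 2), so the difference was smaller than the spread between the libraries. Without the peaks at the lowest pileup of each list the mean was 0.132. Kept to peaks with a fold enrichment of 3 or higher, it was 0.125.

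Tbx5 had the larger number of peaks in each list, but its locus is also longer, 62.6 kb compared with 24.1 kb. Per 10 kb, Tbx5 had 1.76, 2.40 and 0.799 peaks and Tbx3 had 1.25, 0.831 and 0.831. The Tbx5 peaks within the gene lay between 588 bp and 29470 bp into it in replicate 1 and between 4379 bp and 10499 bp in replicate 2. Each replicate had 1 further peak upstream, at −3339 bp and −1987 bp. Both lay within the noncoding gene Gm43050, to which they could equally belong. One place was shared by the replicates, the interval 4317 bp into the gene named above, with fold enrichments of 2.92 and 2.57. At Tbx3 no replicate 1 peak overlapped a replicate 2 peak. Replicate 1 had 2 peaks upstream, within the antisense gene Tbx3os1, to which they could equally belong, and 1 at 12724 bp over the last part of the gene, while both peaks of replicate 2 were intronic at 4266 bp and 11372 bp.

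The space between the gene bodies of Tbx3 and Tbx5, inner flanks included, carried more peaks than that between Tbx2 and Tbx4. Its 148 kb held 14 peaks in replicate 1, 26 against IgG and 9 in replicate 2, or 0.946, 1.76 and 0.608 per 10 kb, compared with 0.45 in each list on chromosome 11. Most of them were in 1 stretch of 21.1 kb at chr5:119794076-119815210, chosen after its values were seen, which ends 17.5 kb before Tbx5 and overlaps the noncoding gene 1700021F13Rik. It held 8, 15 and 8 peaks covering 6.18%, 13.8% and 11.3% of its bases. It starts and ends on peaks, so these shares are not on the scale of the loci with their fixed flanks. Of the 8 peaks of replicate 1 there, 2 were overlapped by a replicate 2 peak. Fold enrichments in the stretch were 2.51 to 2.90, 2.53 to 3.39 and 2.41 to 2.73. The outer protein-coding neighbours carried few peaks. Med13l, a Mediator subunit gene, had 1, 2 and 2 in its 205 kb body, and Rbm19 had 0 in each list in 82.5 kb.

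Tbx15, Tbx18 and Tbx20 each carried a group of peaks over the first part of the gene. Tbx15 lies on chromosome 3 from 99240381 to 99354259 on the plus strand and, as the longest member, had the most peaks, 18, 23 and 11, covering 3.14%, 3.35% and 2.12%. It also had the most places shared by the replicates, 5 in all. The 4 within the gene were centred 13253 bp, 14566 bp, 21883 bp and 25841 bp from the 5′ end, toward the front of a gene of 114 kb. Fold enrichments at these 4 were 2.59 to 2.88 in replicate 1 and 2.42 to 2.52 in replicate 2, and the replicate 2 peaks at 2 of them were at the lowest pileup of the list. Of these 4 places, 1 also lay in a peak against IgG. The second interval lies within the antisense gene Gm43120 as well, and the peaks cannot be assigned to either gene. In replicate 2 a peak with a pileup of 7.63 lay on the 5′ end itself. The nearest in replicate 1 was 1593 bp upstream against input, but against IgG the same library had a peak 51 bp into the gene, which the replicate 2 peak overlapped.

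Tbx18, on chromosome 9 from 87702800 to 87731260 on the minus strand, was second to Tbx4 in mean covered share and had no place shared by the replicates. Its 5, 11 and 6 peaks covered 3.39%, 5.26% and 2.69%, and 0 of the replicate 1 peaks were overlapped by replicate 2. Both replicates had peaks over the same span, between 2167 bp and 10109 bp into the gene in replicate 1 and between 1273 bp and 9873 bp in replicate 2, and further ones upstream. A peak of 73 bp upstream of Tbx18 had the highest fold enrichment of replicate 2 at these genes, 3.36, with a pileup of 9.08.

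Tbx20, on the same chromosome from 24718138 to 24774303 on the minus strand, had 7, 9 and 5 peaks covering 2.34%, 2.92% and 1.19%. A peak lay over its 5′ end against IgG and in replicate 2, and 908 bp into the gene in replicate 1. In replicate 1 the 5 peaks in the gene were all within 9275 bp of the 5′ end of a gene of 56.2 kb. In replicate 2 both lay within 1847 bp. The shared interval, at −1576 bp, had fold enrichments of 3.06 and 2.61 and pileups of 4.13 and 6.59, and was also called against IgG.

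Tbx21, the T-cell regulator, is on chromosome 11 from 97098071 to 97115331 on the minus strand, and its values depended on the library. In replicate 1 it had 5 peaks against input and 7 against IgG, covering 3.73% and 3.54%. In replicate 2 it had 1 peak covering 1.11%, centred 387 bp into the gene, which no peak of replicate 1 overlapped. Of the 5 peaks of replicate 1 against input, 3 were at the lowest pileup of that list. Of 4 marker genes of blood and endothelium, 0 had a promoter peak in any list. Of all protein-coding genes, 3.87%, 4.52% and 4.16% had one in the lists, so 0 of 4 tells little.

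Tbx1 and Tbx22, both with roles in craniofacial development, had the lowest mean covered shares, although Tbx2 was below Tbx1 in both lists of replicate 1. Tbx1 lies on chromosome 16 from 18580979 to 18590671 on the minus strand and had 1 peak in each list, covering 0.833%, 0.818% and 0.655%. These were 3 different peaks, over the 5′ end in replicate 1, at 5157 bp against IgG and past the 3′ end in replicate 2, and no pair of them overlapped. Tbx22, on chromosome X from 107667964 to 107688978 on the plus strand, had 0 peaks, and the nearest peak lay 177 kb from its 5′ end in both lists of replicate 1 and 40.8 kb away in replicate 2. Of protein-coding genes on the X chromosome, 11.6%, 11.8% and 20.3% had a peak in the 3 lists, while of other genes 25.6%, 26.6% and 36.4% had one, and the part of this in the Tbx22 result was not tested. At this depth a peak at Tbx22 was not detected, which does not show that the mark is absent.

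Promoter peaks, within 1 kb of the 5′ end, were found at fewer of the genes than peaks over the whole locus. There were 4 of 10 in replicate 1 against input, beside 3.87% of all protein-coding genes, 4 of 10 against IgG, beside 4.52%, and 5 of 10 in replicate 2, beside 4.16%. In both replicates it was 2 of 10, Tbx4 and Tbx20, beside 1.04%. With a promoter of 2.5 kb on each side the count was 6, beside 2.76% of all protein-coding genes, and with 5 kb it was 7, beside 4.31%. Within 1 kb of any annotated transcript start it was 4, beside 1.91%.

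**Figure D3:**
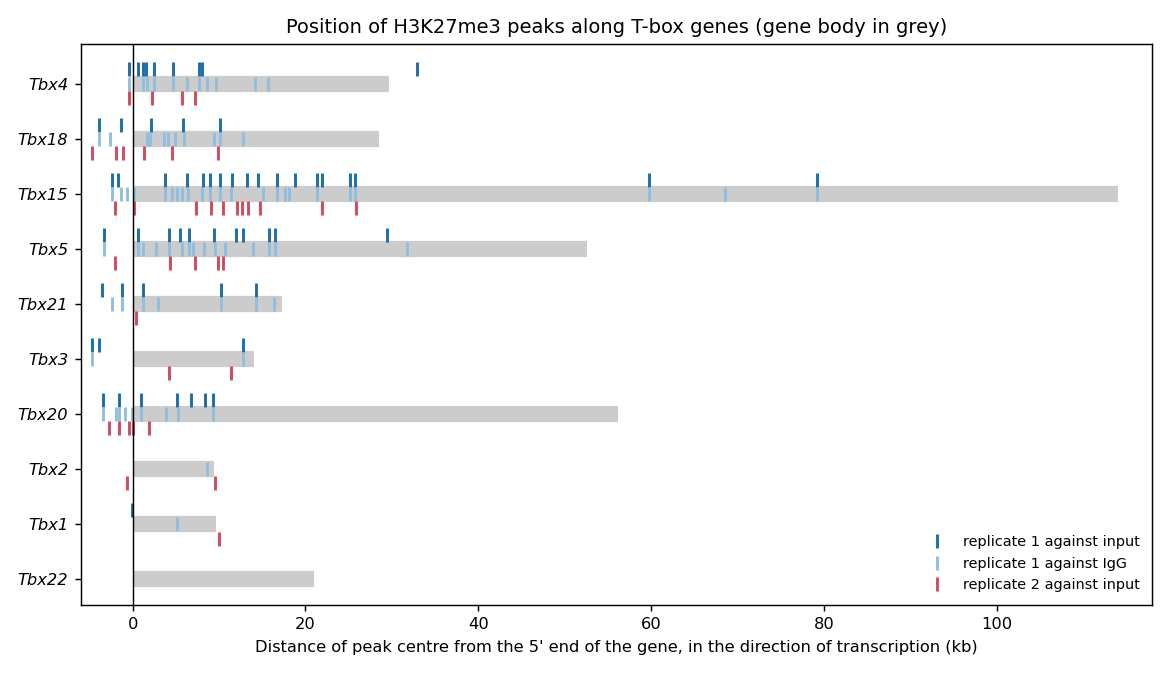
Centres of all peaks at the T-box loci by list (ticks), in kb from the 5′ end of each gene, with the gene body as a bar. At Tbx4, Tbx5, Tbx15, Tbx18 and Tbx20 most ticks fall over the first part of the gene, and Tbx22 has none.

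Within gene bodies, the pooled peaks of the T-box genes lay mainly before the midpoint of the gene. In replicate 1 this held for 40 of 46 peaks in gene bodies (87.0%), against IgG for 55 of 66 (83.3%) and in replicate 2 for 24 of 25 (96.0%), while over all protein-coding genes the shares were 56.4%, 56.8% and 51.7%. Without Tbx15, the longest gene, 26 peaks lay before the midpoint and 4 after it in replicate 1, and 14 and 1 in replicate 2. Most of the pooled peaks were at Tbx4, Tbx5, Tbx15, Tbx18 and Tbx20, and the other genes did not share the split. In replicate 1, Tbx1 had 1 peak before the midpoint and 0 after it, Tbx3 0 and 1, and Tbx21 1 and 2. Against IgG, Tbx1, Tbx2 and Tbx3 each had 0 and 1, and Tbx21 had 2 and 3. In replicate 2, Tbx3 had 1 and 1 and Tbx21 had 1 and 0. This split and the density below were examined after the peak positions had been seen, and neighbouring peaks of 1 gene are not independent, so no test is given.

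Density by distance from the 5′ end gave the same picture in peaks per 10 kb of sequence. In replicate 1 the T-box genes had 2.60 in the 5 kb upstream, 2.20 in the first 5 kb of the gene, 2.65 from 5 to 10 kb, 1.96 from 10 to 20 kb and 0.385 beyond 20 kb. The 5 kb past the 3′ end had 0.2. In replicate 2 the values were 2.20, 1.6, 1.43, 0.982, 0.110 and 0.4. Over all protein-coding genes the density also fell with distance in replicate 1, at a lower level. The values were 0.193, 0.210, 0.121, 0.0901, 0.0755 and 0.129 in the same order. In replicate 2 they were between 0.127 and 0.181. Without Tbx15, the value from 10 to 20 kb was 1.3 in replicate 1 and 0.326 in replicate 2, and that beyond 20 kb was 0.114 in replicate 1 and 0 in replicate 2.

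**Figure D4:**
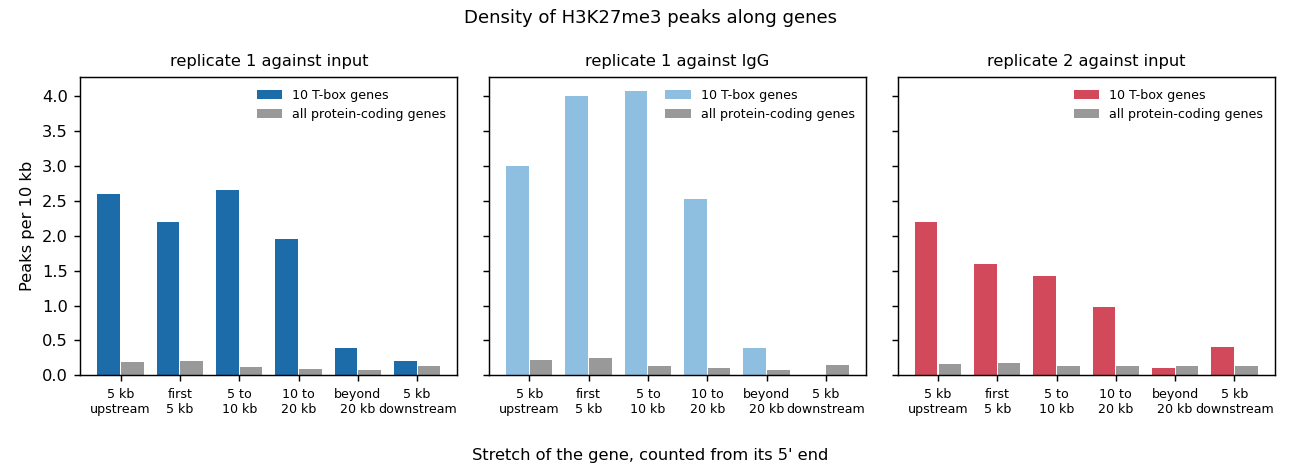
Peaks per 10 kb of sequence by place along the gene, for the 10 T-box genes and for all protein-coding genes, by list. In replicate 1 against input the T-box genes fall from 2.60 in the 5 kb upstream to 0.385 beyond 20 kb. All genes fall from 0.193 to 0.0755 between the same stretches.

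Peaks at most 5 kb apart were joined into runs, and the run covering most of each locus was taken. Tbx15, Tbx18 and Tbx5 had the longest in replicate 1, 22.3 kb of 14 peaks, 20.9 kb of 9 and 20 kb of 10, and against IgG these were 32.7 kb of 22, 23.5 kb of 16 and 22.2 kb of 15. In replicate 2 these 3 were shorter, 7.78 kb of 7 peaks, 9.34 kb of 5 and 6.33 kb of 4. Tbx20 had runs of 13.0 kb in replicate 1, 16.6 kb against IgG and 9.66 kb in replicate 2. The Tbx4 runs were 8.55 kb, 16.3 kb and 8.18 kb, so the lengths in replicate 1 depended on the control. At Tbx3 and Tbx21 the runs of 5.37 kb and 5.01 kb in replicate 1 were single peaks of 0.337 kb and 0.302 kb in replicate 2. Some runs went on past the locus. In replicate 1 the Tbx18 run held 9 peaks where the locus held 5. The Tbx3 run held 4 peaks, of which 2 were in the upstream flank of Tbx3 and the others further upstream. Most of the length of that run lay beyond the flank.

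Single peaks were short and shallow. Their median length at the T-box genes was 159 bp in replicate 1, 180 bp against IgG and 227 bp in replicate 2, and the longest was 850 bp. The shortest had 46, 46 and 71 bp in the 3 lists, the same values as the fragment lengths that the peak caller modelled. These modelled lengths fell below the tag lengths of 49, 49 and 74 bp. Their part in the short peaks, and in the longer median of replicate 2, was not tested. Median fold enrichments were 2.69, 2.74 and 2.54, within ranges of 2.52 to 3.37, 2.51 to 3.27 and 2.37 to 3.36. Peaks at the lowest pileup of their list, which corresponds to 4 tags in replicate 1 and 6 in replicate 2, made up 23.7%, 17.5% and 21.6% of those at the T-box genes, compared with 44.5%, 35.1% and 37.9% of all peaks. Most were intronic, 43 of 59 in replicate 1, with 3 touching exons, 12 in the upstream flank and 1 in the downstream flank. In replicate 2, 20 of 37 were intronic, 5 exonic, 10 upstream and 2 downstream.

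Most single peaks at the T-box genes were not placed at the same position by both libraries. Of 59 replicate 1 peaks, 10 were overlapped by a replicate 2 peak (16.9%, 95% Wilson interval 9.48% to 28.5%), compared with 2.85% of all replicate 1 peaks. Of 37 replicate 2 peaks, 10 were overlapped by replicate 1 (27%, interval 15.4% to 43.0%), compared with 1.90%. The intervals cover counting error only and treat peaks as independent, which clustered peaks of 1 gene are not. Tbx15 gave 5 of the 10, Tbx4 3, and Tbx5 and Tbx20 1 each. Changing only the control of replicate 1 kept 42 of 59 peaks (71.2%) against 51.0% of the whole list. With a fold enrichment of 3 or higher, or a −log10 p of 3 or higher, 0 of these overlaps were left.

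**Figure D5:**
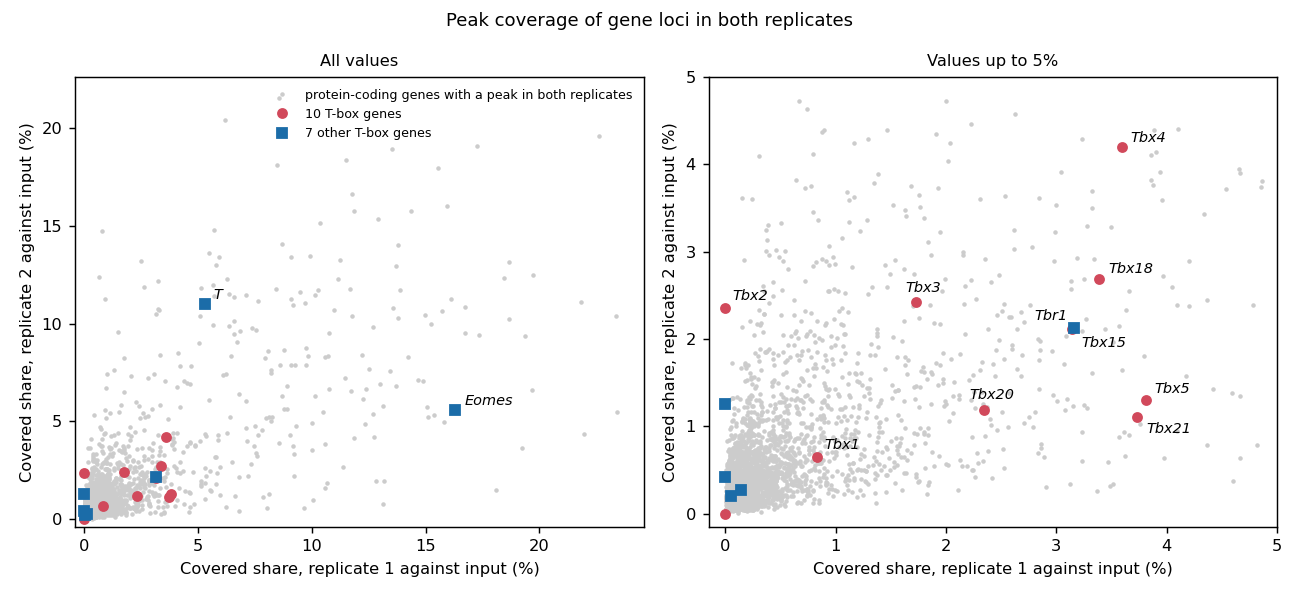
Covered share in replicate 1 (horizontal, %) and replicate 2 (vertical, %) for the 10 T-box genes (circles), the 7 other T-box genes (squares) and protein-coding genes with a peak in both replicates (grey), with all values on the left and values up to 5% on the right. Tbx4 is high in both replicates, and Eomes and T lie above all 10. Tbx5 (3.81% and 1.3%) and Tbx21 (3.73% and 1.11%) are lower in replicate 2 than in replicate 1.

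The T-box family has 7 further genes in the mouse, and these were divided. A peak was found at 5 of 7 in replicate 1, 3 of 7 against IgG and 7 of 7 in replicate 2, with 5 of 7 in both replicates against input. The shares of all protein-coding genes were 25.0%, 25.9%, 35.7% and 15.7% in the same order. Eomes, a regulator of early mesoderm and endoderm, was covered to 16.3%, 13.8% and 5.56% of its locus. T, or Brachyury, the mesoderm and notochord factor, was covered to 5.30%, 10.1% and 11%. Their means of 10.9% and 8.17% exceeded that of Tbx4. Tbr1, which acts in cortical neurons, had 3.16%, 3.31% and 2.13%, within the range of the 10 genes. Tbx6, Tbx10, Tbx19 and Mga, a partner of MAX, stood at or below 1.26% in every list.

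CpG density at the 5′ ends ordered the genes differently from the covered share. The observed-over-expected CpG ratio within 1 kb of the 5′ end was highest at Tbx18 (0.943, above 99% of protein-coding genes), followed by Tbx3 (0.816) and Tbx2 (0.771), and was 0.437 at Tbx4, the most covered gene. Tbx22, with no peak, had the lowest, 0.112. The median of the 10 was 0.534 and that of all protein-coding promoters was 0.474. Over all genes, a peak in both replicates was found for 6.82% of those in the lowest of 4 equal groups by this ratio and for 17.4%, 18.5% and 20% in the higher groups. Within the peaks of the T-box genes, median GC was 48.4%, 49.0% and 50.1%, compared with 46.4%, 46.9% and 45.1% over all peaks, and the median number of CpG sites per 100 bp was 1.25, 1.41 and 2.01 compared with 0.730, 0.794 and 0.704.

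The 5 genes whose peak number and covered share in both replicates were closest to those of Tbx4 were Gata6, Onecut1, Jak3, Dmbx1 and Mcidas, with distances of 0.120, 0.410, 0.438, 0.585 and 0.682 over these 4 values on a log2 scale after adding 1. Gata6 encodes a GATA factor of the heart and endoderm, and its 9 and 4 peaks in the replicates covered 3.23% and 4.29%. Onecut1 and Dmbx1 are homeobox genes, Jak3 is a kinase gene of lymphocytes and Mcidas acts in multiciliated cells.

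The replicates differed in depth, tag length and modelled fragment length, and the effects of these cannot be told apart. H3K27me3 replicate 1 kept 30369351 tags of 49 bp after duplicate removal and replicate 2 kept 49947919 of 74 bp. Promoter peaks were present at 2 and 3 of 11 mesenchymal marker genes in replicates 1 and 2 against input, with Pax9 in both. They were present at 2 and 0 of 7 epithelial and 1 and 0 of 3 neural marker genes. Of all protein-coding genes, 3.87% and 4.16% had one, so 0 among so few markers tells little. A histone mark does not measure expression, so the cell type of the label could not be checked from these files.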

How the data were processed

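The authors aligned reads to GRCm38 with BWA, sorted them with SAMtools and called broad peaks with MACS (2.1.1.20160309) with p 0.005 as the cutoff. Repeated tags at 1 position were dropped and the larger library was scaled down, per the file headers. For each peak the authors deposited a pileup signal, a fold enrichment ratio with a pseudocount of 1, and a −log10 p. Libraries were not pooled. Duplicate formats of the lists were not used here.

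Peaks were joined to GENCODE M21 genes on GRCm38.p6 with Python 3.11.15, numpy 2.4.6 and pandas 2.3.3 by an overlap of 1 base. Loci had 5 kb flanks, promoters 1 kb on each side of the gene's 5′ end. The overlap code was tested on simulated data. Values are given per list with mean and SD of 2 replicates against input, and no test was run. The 10 T-box genes were named in full, the other T-box genes by count with values, the neighbours of both linked pairs by name, and the 5 genes nearest to the most covered member by Euclidean distance. Marker lists covered mesenchyme, epithelium, blood and endothelium, and neural cells. Members and lists were chosen with earlier results of these data known.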

Additional observations from a re-analysis of the deposited data

How the results depend on the processing

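Of 71 alternatives for the main results, 46 kept the value within a tolerance, 22 moved it further and 3 turned its sign. The tolerance was 1.5 times for counts, 1 SD between the replicates for values and the Wilson interval for the overlap. For the covered shares of single genes it was 75 of 100 within and 25 beyond. This tolerance is wide where the replicates differ, as Tbx3 minus Tbx5 still ranged from −2.08 to −0.0376 within it and the covered share of Tbx2 from 0% to 2.36%, compared with 1.18%. Peaks of a fold enrichment of 3 or higher, of which 2040 and 522 were left in the replicates, gave 0 T-box genes with a peak in both replicates, 0 with a promoter peak in both, 0 other T-box genes, 0% overlap, a median covered share of 0.0646%, −0.19 for Tbx2 minus Tbx4 and 0.125, a changed sign, for Tbx3 minus Tbx5. A −log10 p of 3 or higher, with 744 and 3678 peaks left, gave 1, 0, 0, 0%, 0.0188% and −0.987 for the first 6 of these. Fewer peaks were left by construction. Without peaks at the lowest pileup Tbx3 minus Tbx5 was 0.132, again with a changed sign. Promoter peaks in both replicates were at 6 genes with 2.5 kb, 7 with 5 kb and 4 with every annotated transcript start. The other T-box genes numbered 3 without flanks and 3 with IgG as the control. Requiring the larger part of a peak to be overlapped gave 6.78%. Merging at 2 kb and 10 kb gave median runs of 1.55 kb and 8.78 kb, compared with 5.61 kb. Leaving out 1 replicate gave 8 to 9 genes with a peak, 4 to 5 with a promoter peak, a median covered share of 1.71% to 2.74%, −3.59 to −1.84 for Tbx2 minus Tbx4, −2.08 to 1.12 for Tbx3 minus Tbx5, where the sign changed without replicate 1, and 5 to 7 other T-box genes. The causes of these differences were not tested. Differences between genes were taken within each replicate, and no paired test was run. The labels number only the second library of each kind. Single peaks rest on few tags, and a locus without a peak may still carry the mark.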

Other observations

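The nearest protein-coding genes on each side of the T-box genes, 17 in all, were counted by the same rule, with 7 carrying a peak in replicate 1 (9 with IgG as its control), 11 in replicate 2 and 6 in both. Over all protein-coding genes the shares were 25.0% in replicate 1 (25.9% with IgG), 35.7% in replicate 2 and 15.7% in both. Gm11444, between Tbx2 and Tbx4, was 1 of these 6, and its replicate 2 peak lay in the flank shared with Tbx2. Wars2, which ends 1.2 kb before Tbx15 and encodes the mitochondrial tryptophan tRNA synthetase, had the most, with 6, 8 and 7 peaks, part of which lay in the flank shared with Tbx15. Spag17, on the other side of Tbx15, had 4, 2 and 2. The genes beside Tbx22, Itm2a and 2610002M06Rik, and Tbkbp1 beside Tbx21 had 0 in every list.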
